A study of Mus musculus with 9 samples.

Results

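The genes described here are 32 genes of the mevalonate pathway, sterol synthesis and cholesterol homeostasis, picked by symbol from the 24421 genes that were counted in tumors of the mouse endothelial line bEnd.3. They include 19 enzymes of the route from acetyl-CoA to cholesterol (8 for entry and the mevalonate steps, 11 from squalene onwards). Ggps1, counted among the 8, acts on a side branch to geranylgeranyl groups. The rest are 5 genes that control the SREBP transcription factors, 3 genes of cholesterol traffic inside the cell, and 5 genes of efflux, LXR signaling and storage. The list does not cover every gene of the pathway. bEnd.3 cells, which carry the polyoma middle T antigen, were grown in the flank of male nude mice (Nu/Nu, athymic) and served as a model of hemangioma. From the second day after injection the mice received R-propranolol, the isomer of propranolol without beta-blocking activity, at 6 mg/kg/day, or vehicle (ethanol in DPBS), into the peritoneum 5 times a week. RNA was read from 5 R-propranolol-treated and 4 vehicle-treated tumors with 1 library per tumor, although the study describes 5 mice in each group. The age of the mice was not given in the sources used here. All tumors came from the same cell line in hosts that still have muscle, fat, skin, vessels and innate immune cells of their own, so each library mixes line and host RNA.

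Cells make cholesterol from acetyl-CoA through mevalonate, the isoprenoid diphosphates, squalene and lanosterol. When sterol in the membrane of the endoplasmic reticulum is low, Scap carries the SREBP factors to the Golgi for cleavage, and the freed factors turn on the enzyme genes together, while the Insig proteins hold Scap back when sterol is plentiful. Oxysterols act in the opposite direction through LXR receptors, which induce the efflux pumps. The pathway also feeds the prenyl groups that anchor signaling proteins to membranes.

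Promoters were searched for what these genes share in their DNA. SREBP factors bind a sterol element and usually act beside the factor NF-Y, which binds CCAAT, and Sp1, which binds GGGCGG. RefSeq promoters of build GRCm38.p6, each 300 bases from 250 before to 50 after a gene's start, were found for 26 of the 32 genes. Searched on both strands, CCAAT lay in at least 1 promoter of 22 of these 26 genes, against 41.1% of all 27025 genes with a promoter. GGGCGG lay in 23 of 26, against 38.2%. Among the 16 enzymes with a promoter, 15 had CCAAT and 14 had GGGCGG. The 27025 genes were not limited to those expressed in these tumors. The classic sterol element, searched as TCACNCCAC where N is any base, was in Hmgcs1 alone among the 26, against 1.44% of all genes. The SREBP factors also bind other sequences, so its lack in a window says nothing of binding. The promoters below are those of Hmgcs1, of the 3 enzyme genes with the widest range among R-propranolol replicates 1 to 4 (Idi1, Msmo1 and Cyp51), and of Ggps1, the enzyme gene with the narrowest range among them, and they were chosen after the values were seen. Capitals mark the sterol element and the CCAAT boxes on either strand, where a box of the other strand reads ATTGG. Hmgcs1 lies on the plus strand at chr13:119690101-119690400, Idi1 on the plus strand at chr13:8885356-8885655, Msmo1 on the minus strand at chr8:64733529-64733828, Cyp51 on the minus strand at chr5:4104648-4104947 and Ggps1 on the minus strand at chr13:14063439-14063738.
Hmgcs1: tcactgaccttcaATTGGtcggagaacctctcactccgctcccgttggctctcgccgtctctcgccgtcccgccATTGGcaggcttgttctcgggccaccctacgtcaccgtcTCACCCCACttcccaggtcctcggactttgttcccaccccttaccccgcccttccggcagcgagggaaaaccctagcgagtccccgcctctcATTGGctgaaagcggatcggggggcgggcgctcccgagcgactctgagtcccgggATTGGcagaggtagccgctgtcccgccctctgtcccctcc
Idi1: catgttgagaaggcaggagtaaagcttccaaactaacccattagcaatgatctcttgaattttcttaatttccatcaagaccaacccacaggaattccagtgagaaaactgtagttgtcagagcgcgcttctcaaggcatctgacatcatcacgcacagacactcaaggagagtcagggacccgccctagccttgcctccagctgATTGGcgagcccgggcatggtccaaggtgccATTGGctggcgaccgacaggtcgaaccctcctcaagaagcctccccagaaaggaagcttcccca
Msmo1: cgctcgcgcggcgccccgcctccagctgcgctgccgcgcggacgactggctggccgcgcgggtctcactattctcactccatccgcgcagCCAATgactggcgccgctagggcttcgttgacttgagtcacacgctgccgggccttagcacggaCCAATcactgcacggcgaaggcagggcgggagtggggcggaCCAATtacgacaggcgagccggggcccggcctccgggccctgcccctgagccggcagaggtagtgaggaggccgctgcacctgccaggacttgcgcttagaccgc
Cyp51: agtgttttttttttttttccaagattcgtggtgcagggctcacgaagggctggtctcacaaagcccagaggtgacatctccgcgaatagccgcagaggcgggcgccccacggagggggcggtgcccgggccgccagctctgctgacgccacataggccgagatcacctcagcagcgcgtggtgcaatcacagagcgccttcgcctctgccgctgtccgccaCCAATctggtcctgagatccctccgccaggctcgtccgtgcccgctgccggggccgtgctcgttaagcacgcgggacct
Ggps1: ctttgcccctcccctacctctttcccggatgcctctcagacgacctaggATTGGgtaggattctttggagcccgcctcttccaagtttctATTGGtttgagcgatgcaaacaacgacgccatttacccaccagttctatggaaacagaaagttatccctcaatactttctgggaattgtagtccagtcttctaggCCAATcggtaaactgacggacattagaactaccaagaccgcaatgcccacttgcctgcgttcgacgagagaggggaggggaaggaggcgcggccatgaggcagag

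Counts over genes came to 21084749 to 27852630 per library in R-propranolol-treated tumors and 20599904 to 24949010 in vehicle-treated tumors. Values are given as CPM, the counts of a gene scaled to a common library size. All 10 endothelial genes looked at were detected in every tumor, and their summed level was 494 to 995 CPM in R-propranolol-treated tumors and 470 to 599 CPM in vehicle-treated tumors. That sum hides opposite moves of single genes in R-propranolol replicate 5. Tie1 had 902 counts there, against 4893 in R-propranolol replicate 1, while Kdr had 1274, against 447. In R-propranolol replicate 2, which had the 995 CPM, single genes also differed, with 4802 counts for Tie1 and 1736 for Kdr. These counts are not scaled to library size. R-propranolol replicate 5 stood apart, with 10 skeletal muscle genes summing to 146587 CPM, against 4.63 to 9.81 CPM in the other 4 R-propranolol-treated tumors and 4.32 to 352 CPM in vehicle-treated tumors. Its adipocyte genes summed to 5791 CPM, against at most 491 CPM in each other tumor, and its proliferation genes to 265 CPM, against at least 1008 CPM. R-propranolol replicate 2 was high in fibroblast genes, with 32007 CPM. Log2 fold changes that moved much without R-propranolol replicate 5 are given with and without it, and the main counts also without both tumors.

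The comparison asked whether R-propranolol changed the expression of the cholesterol genes. No gene of the 32 passed the test. Of the 13901 genes with enough counts, 0.0% passed edgeR's quasi-likelihood test at an adjusted p under 0.05, and the smallest adjusted p of any gene was 0.876 with this tool. At an unadjusted p under 0.05 there were 320 genes (2.3%), 280 higher (2.01%) and 40 lower (0.288%), or 173 and 69 with library size alone, and none of them was among the 32. DESeq2 called 2 genes, neither of them a cholesterol gene, and gave 0 of the 32 an unadjusted p under 0.05, and limma-voom called 0 genes. CPM values of the groups overlapped for each of the 32 genes, and they were free of overlap for 1.26% of all genes. The log2 fold change, R-propranolol over vehicle, was above 0 for 8 of the 32 genes and below 0 for 24, against 54.3% and 45.7% of all genes, and its median was -0.11, against 0.03 for all genes. Those signs turned with the setting. Without R-propranolol replicate 5, 14 of 32 were above 0 and 18 below with a median of -0.01 (53.7% and 46.3% of all genes). With tumor quality weights in limma-voom, 25 of 32 were above 0 with a median of 0.09, against 48.9% and -0.003 for all genes. The 95% interval of the difference included 0 for 32 of 32 genes, and for the 19 enzymes the intervals together ran from a log2 fold change of -1.46 to 0.88. Without R-propranolol replicate 5 they ran from -0.79 to 0.79. A p above the threshold does not show that the groups were alike within these bounds.

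**Figure D1:**
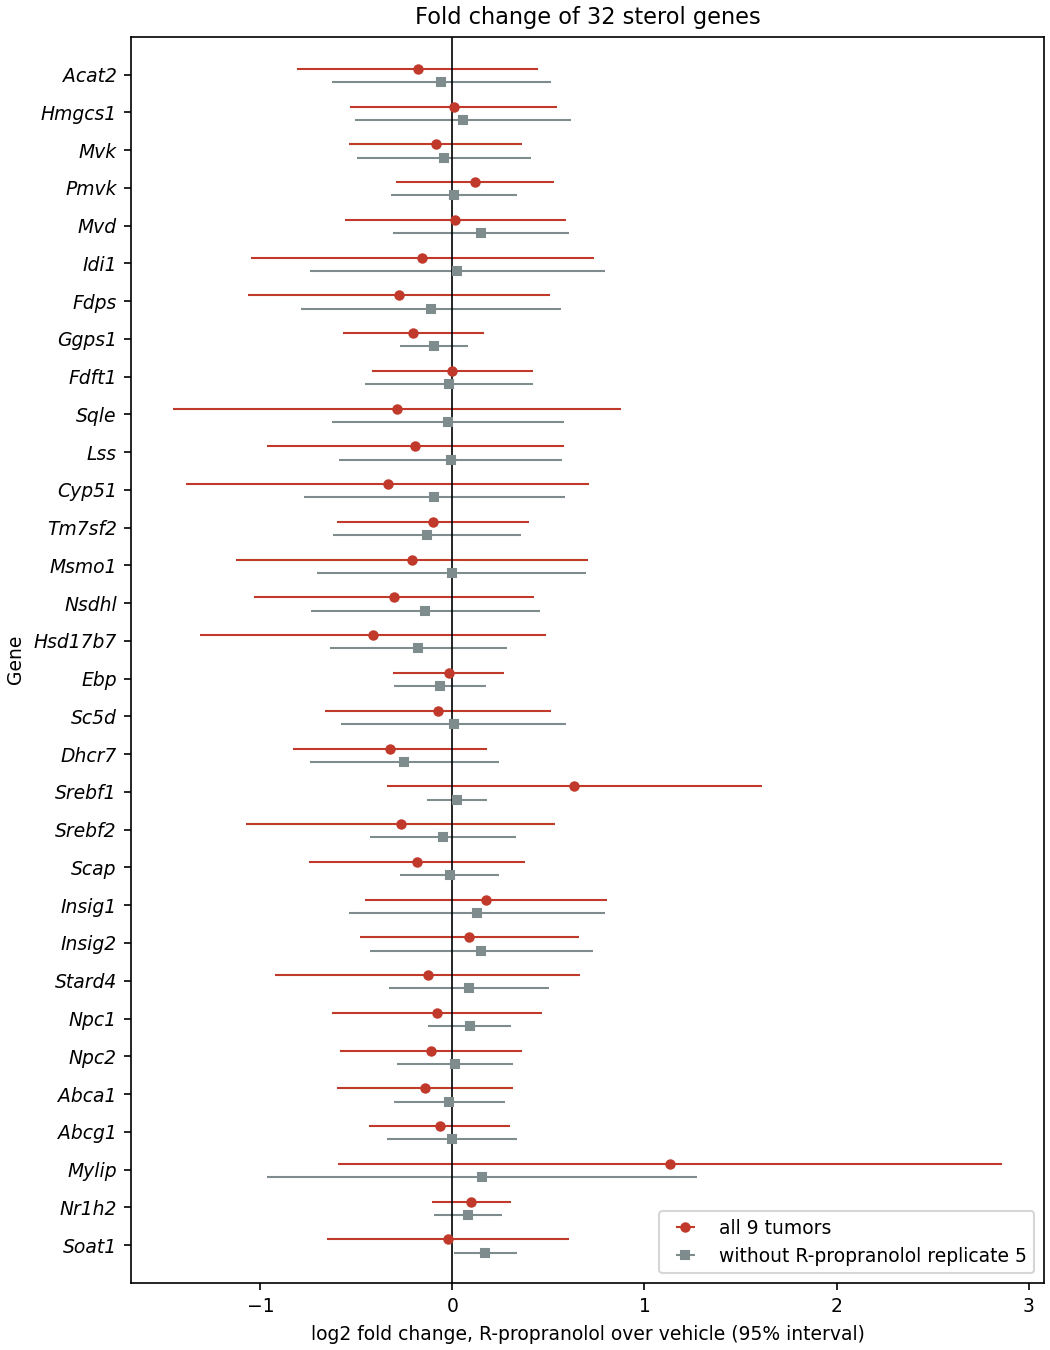
Log2 fold change of each of the 32 genes (horizontal axis, R-propranolol over vehicle, with the 95% interval as a bar) in the fit with all 9 tumors (red) and without R-propranolol replicate 5 (grey). The intervals of all 32 genes cover 0 with 9 tumors, and those of Sqle, Cyp51 and Srebf1 are much narrower without R-propranolol replicate 5.

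The 8 genes of entry and the mevalonate steps gave 3 log2 fold changes above 0 and 5 below (4 and 4 without R-propranolol replicate 5), with a median of -0.12. Acat2, the thiolase that makes acetoacetyl-CoA, had 34.1 to 77.3 CPM in R-propranolol-treated tumors and 48.6 to 75.2 CPM in vehicle-treated tumors, a log2 fold change of -0.18 with all tumors and -0.06 without R-propranolol replicate 5. Hmgcs1, the HMG-CoA synthase of the cytosol, was at 123, 68.7, 137, 77.2 and 85.4 CPM in R-propranolol replicates 1 to 5, against 79.9, 80.8, 120.2 and 109.9 CPM in vehicle replicates 1 to 4. Its means were the same to within the spread, at 98.2 ± 29.9 CPM in R-propranolol-treated tumors and 97.7 ± 20.4 CPM in vehicle-treated tumors (SD, n = 5 and n = 4, as in all means here), and the log2 fold change was 0.01 with a 95% interval of -0.53 to 0.55, and 0.05 without R-propranolol replicate 5. The kinases Mvk and Pmvk and the decarboxylase Mvd, which turn mevalonate into isopentenyl diphosphate, had log2 fold changes of -0.09, 0.12 and 0.02, and of -0.05, 0.01 and 0.15 without R-propranolol replicate 5.

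Idi1, the isomerase that gives the other isoprenoid building block, was at 34.4, 12.7, 33.7, 15.5 and 9.84 CPM in R-propranolol replicates 1 to 5, against 20.1, 21.9, 22.1 and 30.5 CPM in vehicle replicates 1 to 4. The treated tumors lay on both sides of the vehicle-treated ones, with R-propranolol replicates 1 and 3 above all 4 and replicates 2, 4 and 5 below all 4. Its log2 fold change was -0.16 (SE 0.39, 95% interval -1.05 to 0.74), and 0.03 without R-propranolol replicate 5. Fdps, which joins the building blocks into farnesyl diphosphate, was at 116, 55.6, 126, 65.3 and 41.6 CPM in R-propranolol replicates 1 to 5, against 69.8, 88.9, 102.6 and 131 CPM in vehicle replicates 1 to 4. The order was alike, except that vehicle replicate 4 was the highest tumor, and the log2 fold change was -0.28 (SE 0.35, edgeR adjusted p = 0.878), against -0.11 without R-propranolol replicate 5.

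Ggps1, the enzyme of the branch to geranylgeranyl groups for proteins, behaved differently. It was at 23.1, 22.1, 23.0, 24.1 and 14.6 CPM in R-propranolol replicates 1 to 5, against 23.5, 26.7, 22.9 and 25.4 CPM in vehicle replicates 1 to 4. R-propranolol replicates 1 to 4 lay within a 1.09-fold range, and replicate 5 was below the rest. The log2 fold change was -0.20 (SE 0.16, edgeR adjusted p = 0.876), and -0.10 without R-propranolol replicate 5.

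From squalene to cholesterol, all 11 genes had a log2 fold change below 0, with a median of -0.21, but none passed the test, 10 were below 0 without R-propranolol replicate 5 with a median of -0.06, and Fdft1 turned to 0.01 with the size factors of DESeq2. Sqle, the squalene epoxidase that is a slow step of the pathway, lies on chromosome 15 from 59315077 to 59331192 (GRCm38). It was at 356, 168, 375, 213 and 41.8 CPM in R-propranolol replicates 1 to 5, against 217, 279.8, 301 and 331 CPM in vehicle replicates 1 to 4. The treated tumors held the 2 highest and the 3 lowest values. Means were 231 ± 138 CPM in R-propranolol-treated tumors and 282 ± 48.3 CPM in vehicle-treated tumors, the log2 fold change was -0.29 (SE 0.51, edgeR adjusted p = 0.884), and it was -0.02 without R-propranolol replicate 5.

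Cyp51, the demethylase of lanosterol, was at 176, 77.6, 199, 99.8 and 30.9 CPM in R-propranolol replicates 1 to 5, against 117, 135, 157 and 181 CPM in vehicle replicates 1 to 4. R-propranolol replicate 3 was the highest tumor and replicates 2, 4 and 5 were the lowest. Its log2 fold change was -0.34 (SE 0.46, 95% interval -1.39 to 0.71, edgeR adjusted p = 0.878), against -0.09 without R-propranolol replicate 5. Hsd17b7, the keto reductase of the demethylation that follows, was at 127, 66.5, 132, 89.5 and 25.7 CPM in R-propranolol replicates 1 to 5, against 109.7, 124, 116 and 120.1 CPM in vehicle replicates 1 to 4. The vehicle-treated tumors stayed within a 1.13-fold range, which R-propranolol replicates 1 to 4 exceeded at both ends with a 1.98-fold range. The log2 fold change was -0.41 (SE 0.40, edgeR adjusted p = 0.878), the lowest of the 32 genes, and -0.18 without R-propranolol replicate 5.

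Dhcr7, the reductase that makes cholesterol in the last step, had the smallest exact permutation p of the 32 genes, 0.159 (two-sided, adjusted p = 1 over all genes tested, the smallest that 5 against 4 tumors can give being 0.00794). It was at 38.4, 19.6, 38.9, 26.5 and 23.1 CPM in R-propranolol replicates 1 to 5, against 31.7, 35.3, 39.1 and 40.7 CPM in vehicle replicates 1 to 4. R-propranolol replicates 2, 4 and 5 were below all vehicle-treated tumors, and replicates 1 and 3 were among the vehicle-treated tumors. The log2 fold change was -0.32 (SE 0.22, 95% interval -0.83 to 0.18) and -0.25 without R-propranolol replicate 5.

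The other 7 genes of this stretch had log2 fold changes from -0.31 for Nsdhl to -0.0009 for Fdft1, and from -0.14 for Nsdhl to 0.006 for Sc5d without R-propranolol replicate 5. Fdft1, the squalene synthase, averaged 70.1 ± 17.3 CPM in R-propranolol-treated tumors and 70.1 ± 7.56 CPM in vehicle-treated tumors. Lss, the lanosterol synthase, averaged 38.1 ± 17.5 CPM in R-propranolol-treated tumors and 43.6 ± 8.53 CPM in vehicle-treated tumors, with a log2 fold change of -0.19, or -0.01 without R-propranolol replicate 5. Of the enzymes that trim and reduce lanosterol, Msmo1, a methyl sterol oxidase, was at 58.3 ± 33.0 CPM in R-propranolol-treated tumors and 67.5 ± 13.0 CPM in vehicle-treated tumors, with a log2 fold change of -0.21, or -0.004 without R-propranolol replicate 5. Nsdhl, a sterol dehydrogenase, was at 34.1 ± 14.8 CPM in R-propranolol-treated tumors and 42.2 ± 9.29 CPM in vehicle-treated tumors. Ebp, the sterol isomerase, was even across tumors, at 22.4, 23.3, 24.7, 18.7 and 25.6 CPM in R-propranolol replicates 1 to 5, against 20.4, 24.0, 24.2 and 24.3 CPM in vehicle replicates 1 to 4. The sterol desaturase Sc5d and the sterol reductase Tm7sf2 had log2 fold changes of -0.07 and -0.10, and of 0.006 and -0.13 without R-propranolol replicate 5.

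**Figure D2:**
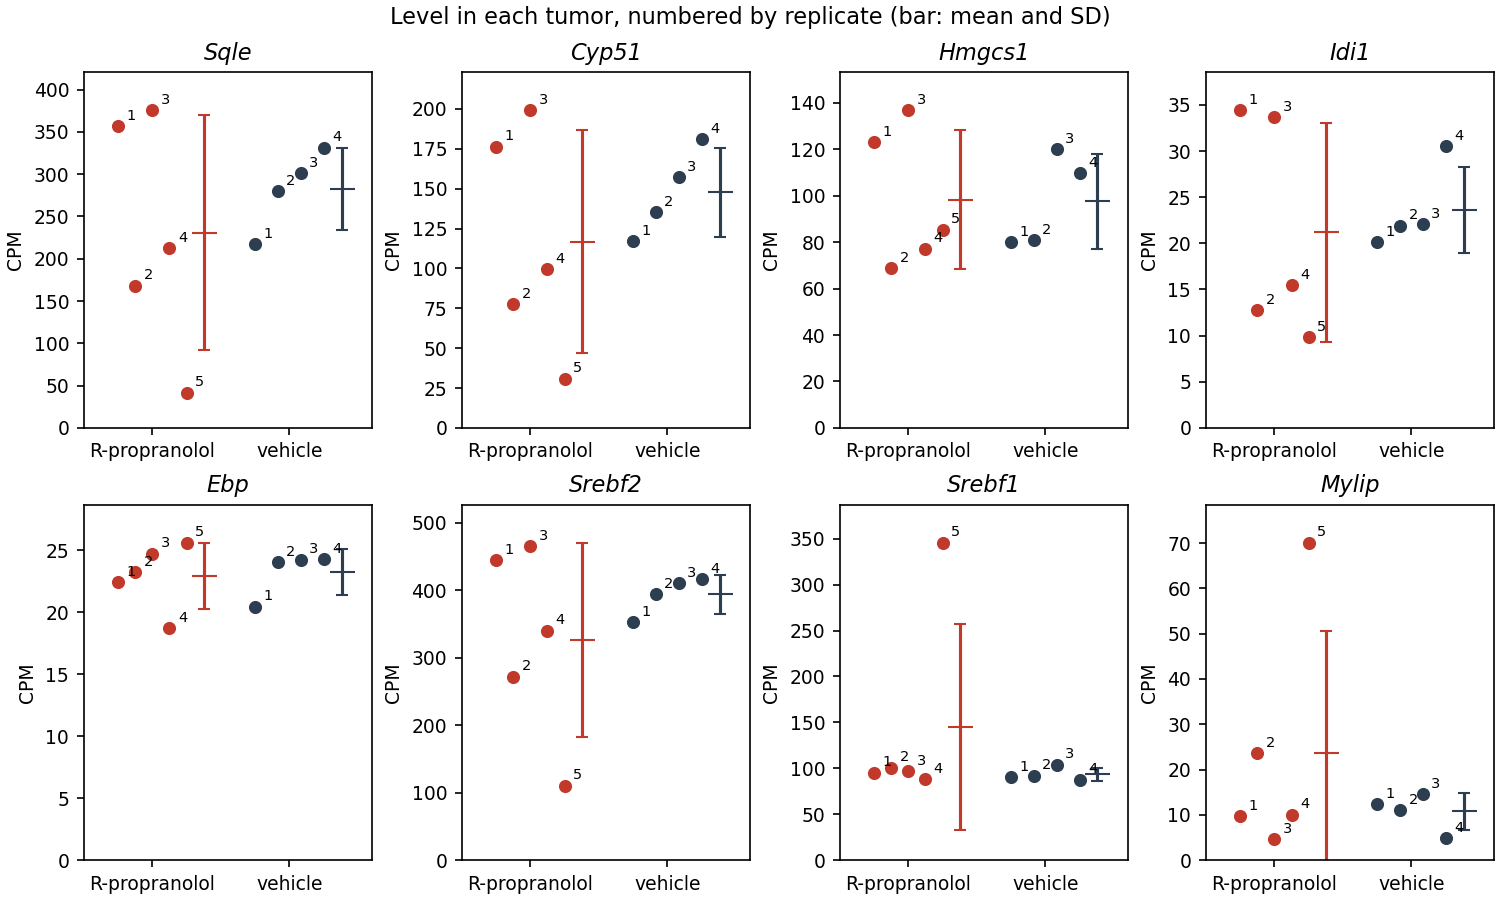
Level in CPM (vertical axis, from 0) of 8 genes in each tumor, with R-propranolol-treated tumors in red and vehicle-treated tumors in dark, numbered by replicate, beside the mean and SD of each group. For Sqle and Cyp51 R-propranolol replicates 1 and 3 are high and replicates 2, 4 and 5 low, Ebp is even, and Srebf1 and Mylip are high in R-propranolol replicate 5 with 346 and 70.1 CPM, where the SD bar of Mylip runs below the axis.

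The 5 genes of SREBP control gave 3 log2 fold changes above 0 and 2 below, with a median of 0.09 (3 above and a median of 0.02 without R-propranolol replicate 5). Srebf2, which encodes the SREBP that mainly drives sterol synthesis, lies on chromosome 15 from 82147181 to 82205379. It was at 445, 272, 465, 340.3 and 111 CPM in R-propranolol replicates 1 to 5, against 353, 395, 410.2 and 417 CPM in vehicle replicates 1 to 4. R-propranolol replicates 1 and 3 were the highest and replicates 2, 4 and 5 the lowest of the 9 tumors, as for the enzyme genes Idi1, Sqle, Lss, Msmo1, Hsd17b7 and Sc5d. The log2 fold change was -0.27 (SE 0.36, edgeR adjusted p = 0.878), and -0.05 without R-propranolol replicate 5.

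Srebf1, whose product mainly drives fatty acid synthesis, was at 95.2, 100.6, 97.3, 88.2 and 346 CPM in R-propranolol replicates 1 to 5, against 90.5, 92.1, 104 and 87.7 CPM in vehicle replicates 1 to 4. All tumors but R-propranolol replicate 5 lay between 87.7 and 104 CPM, and that tumor was 3.69 times the vehicle mean. Its log2 fold change was 0.63 (SE 0.43, edgeR adjusted p = 0.876) with all tumors and 0.02 (95% interval -0.13 to 0.18) without that tumor. Scap, the escort protein, had 139 ± 44.3 CPM in R-propranolol-treated tumors and 158 ± 6.90 CPM in vehicle-treated tumors, with a log2 fold change of -0.19, or -0.01 without R-propranolol replicate 5.

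Insig1, the retention protein that is itself an SREBP target, was at 120.5, 64.0, 144, 59.1 and 113 CPM in R-propranolol replicates 1 to 5, against 69.6, 90.5, 103.7 and 90.6 CPM in vehicle replicates 1 to 4. Replicates 1 and 3 were again the highest of all tumors and replicates 2 and 4 the lowest, but R-propranolol replicate 5 was above the vehicle-treated tumors. That gave a log2 fold change of 0.17 (SE 0.28, edgeR adjusted p = 0.880). Insig2, the other retention protein, was at 111, 94.1, 157, 77.3 and 86.0 CPM in R-propranolol replicates 1 to 5, against 67.1, 109.0, 90.4 and 129.8 CPM in vehicle replicates 1 to 4. The vehicle-treated tumors spread over a 1.93-fold range, and the log2 fold change was 0.09 (SE 0.25, edgeR adjusted p = 0.915), or 0.15 without R-propranolol replicate 5.

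The 3 genes of traffic had log2 fold changes of -0.13 to -0.08 with all tumors and, without R-propranolol replicate 5, of 0.01 to 0.09. Stard4, which carries sterol through the cytosol, was at 64.1, 39.9, 66.5, 44.9 and 16.5 CPM in R-propranolol replicates 1 to 5, against 41.6, 53.1, 50.5 and 57.7 CPM in vehicle replicates 1 to 4, a log2 fold change of -0.13 (SE 0.35, edgeR adjusted p = 0.910). R-propranolol replicates 1 and 3 were again above all vehicle-treated tumors. Npc2, which hands cholesterol to Npc1 inside the lysosome, was at 520.4, 489, 637, 450.3 and 305 CPM in R-propranolol replicates 1 to 5, against 424, 514, 568 and 569 CPM in vehicle replicates 1 to 4. The groups overlapped with R-propranolol replicate 3 highest and replicate 5 lowest, and the log2 fold change was -0.11 (SE 0.21, edgeR adjusted p = 0.885). Npc1, which exports cholesterol from the lysosome, had 150.3 to 193 CPM in R-propranolol replicates 1 to 4 and 73.4 CPM in replicate 5, against 140.2 to 167 CPM in vehicle-treated tumors.

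Among the 5 genes of efflux, LXR signaling and storage, 2 log2 fold changes were above 0 and 3 below (3 above without R-propranolol replicate 5). Abca1 and Abcg1, the pumps that load cholesterol onto lipoproteins, had log2 fold changes of -0.14 and -0.07, and of -0.02 and -0.002 without R-propranolol replicate 5. Nr1h2, the LXR receptor found in most tissues, was at 89.0, 93.3, 102, 79.8 and 95.2 CPM in R-propranolol replicates 1 to 5, against 84.5, 84.3, 83.1 and 91.3 CPM in vehicle replicates 1 to 4. Its log2 fold change was 0.10 (SE 0.09, 95% interval -0.11 to 0.30), the narrowest of the 32 intervals. Mylip, an LXR target that marks lipoprotein receptors for destruction, was at 9.70, 23.7, 4.71, 10.04 and 70.1 CPM in R-propranolol replicates 1 to 5, against 12.4, 11.0, 14.6 and 4.94 CPM in vehicle replicates 1 to 4. It had the highest log2 fold change of the 32 genes, 1.13 (SE 0.76, edgeR adjusted p = 0.876), and was the one gene of the 32 with a fitted change of at least 2-fold, a size that 10.6% of all genes reached, but the value was 0.15 without R-propranolol replicate 5. Soat1, which esterifies cholesterol for storage, was at 177, 206, 185, 182 and 68.4 CPM in R-propranolol replicates 1 to 5, against 150.1, 177, 170.1 and 167 CPM in vehicle replicates 1 to 4. The log2 fold change was -0.02 with all tumors and 0.17 (95% interval 0.01 to 0.33) without R-propranolol replicate 5, where its unadjusted p was 0.0406 and its edgeR adjusted p 0.9995, and 3.78% of all genes had an unadjusted p under 0.05 in that fit.

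The values had one shape in common, described here with no test. In R-propranolol replicates 1 and 3 most enzymes were above the vehicle mean, 17 and 18 of 19, and in replicates 2, 4 and 5 most were below it, with 1, 0 and 4 of 19 above. In vehicle replicates 1 to 4 the counts above that mean were 1, 5, 16 and 19 of 19. Over all genes tested, 48.9% to 52.7% were above the vehicle mean in each tumor. Median log2 ratios of the 19 enzymes to the vehicle mean were 0.28, -0.68, 0.40, -0.39 and -0.76 in R-propranolol replicates 1 to 5, against -0.26, -0.06, 0.08 and 0.21 in vehicle replicates 1 to 4. The enzymes thus differed from tumor to tumor in both groups, mostly in the same direction within a tumor.

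The sum over the 19 enzymes was 1505, 782, 1628, 936 and 565 CPM in R-propranolol replicates 1 to 5, against 1021, 1199, 1332 and 1478 CPM in vehicle replicates 1 to 4. The treated tumors held both ends of the 9 sums, 2 above and 3 below all vehicle-treated tumors. Among the 8 tumors other than R-propranolol replicate 5, replicate 3 of the treated group was the highest for 12 of 19 enzymes, against 14.1% of all genes, and replicate 2 the lowest for 17 of 19, against 24.1% of all genes. These shares are of genes in the same libraries, and genes are not replicates.

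**Figure D3:**
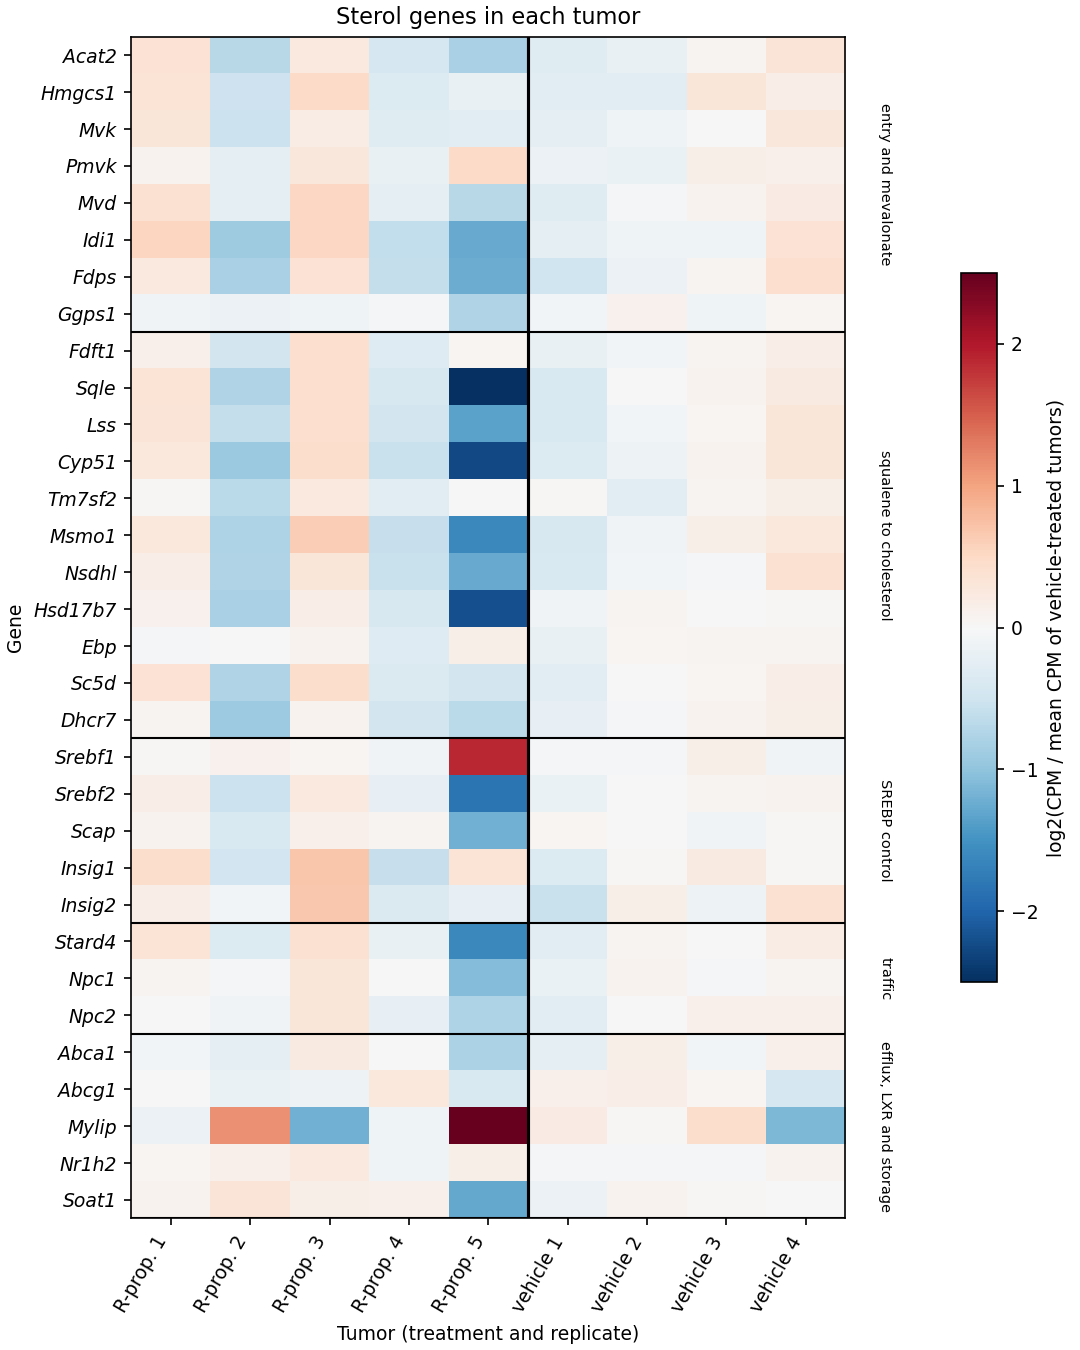
Log2 ratio of CPM in each tumor (columns, R-propranolol replicates 1 to 5 left of vehicle replicates 1 to 4) to the mean CPM of vehicle-treated tumors, for the 32 genes in rows by role, with red above and blue below it and the darkest colors passed by Sqle and Mylip in R-propranolol replicate 5. Most enzyme rows are red in R-propranolol replicates 1 and 3 and blue in replicates 2, 4 and 5, while Srebf1 and Mylip are red in replicate 5.

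The spread between tumors was larger among treated tumors. The SD of log2 CPM was larger in R-propranolol-treated than in vehicle-treated tumors for 19 of 19 enzymes and 30 of 32 genes, but this also held for 89.9% of all genes. With R-propranolol replicate 5 left out it was larger for 18 of 19 enzymes and 28 of 32 genes, against 65.7% of all genes. The median SD of the enzymes was 0.49 in R-propranolol replicates 1 to 4 and 0.22 in vehicle-treated tumors, against 0.20 and 0.16 for all genes. The range of the vehicle-treated tumors lay inside that of R-propranolol replicates 1 to 4 for 14 of 19 enzymes and 21 of 32 genes, against 29.8% of all genes. With R-propranolol replicates 2 and 5 both left out, the SD was larger than in vehicle-treated tumors for 18 of 19 enzymes and 25 of 32 genes, against 44.5% of all genes. The vehicle range then lay inside that of R-propranolol replicates 1, 3 and 4 for 14 of 19 enzymes and 17 of 32 genes, against 12.1%, and the median SD of the enzymes in these 3 treated tumors was 0.42.

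Among the enzymes and Insig1, the highest of R-propranolol replicates 1 to 4 was 2.70 times the lowest for Idi1, 2.62 times for Msmo1, 2.57 times for Cyp51, 2.44 times for Insig1, 2.29 times for Sc5d and 2.26 times for Fdps. Mylip had a wider range than any of these, 5.03 times in R-propranolol replicates 1 to 4 and 2.96 times in vehicle-treated tumors. In vehicle-treated tumors the ratio reached at most 1.87 among the enzymes, for Fdps. It passed 1.5 for 16 of 19 enzymes in R-propranolol replicates 1 to 4 and for 9 of 19 in vehicle-treated tumors. The share of all genes that passed 1.5 was not computed. A larger SD of log2 CPM in R-propranolol replicates 1 to 4 than in vehicle-treated tumors was seen for 65.7% of all genes. Ebp (1.32) and Ggps1 (1.09) were the narrowest enzymes in R-propranolol replicates 1 to 4, together with Pmvk (1.42). Printed above, the promoters of Idi1, Msmo1, Cyp51 and Ggps1 all hold CCAAT boxes.

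**Figure D4:**
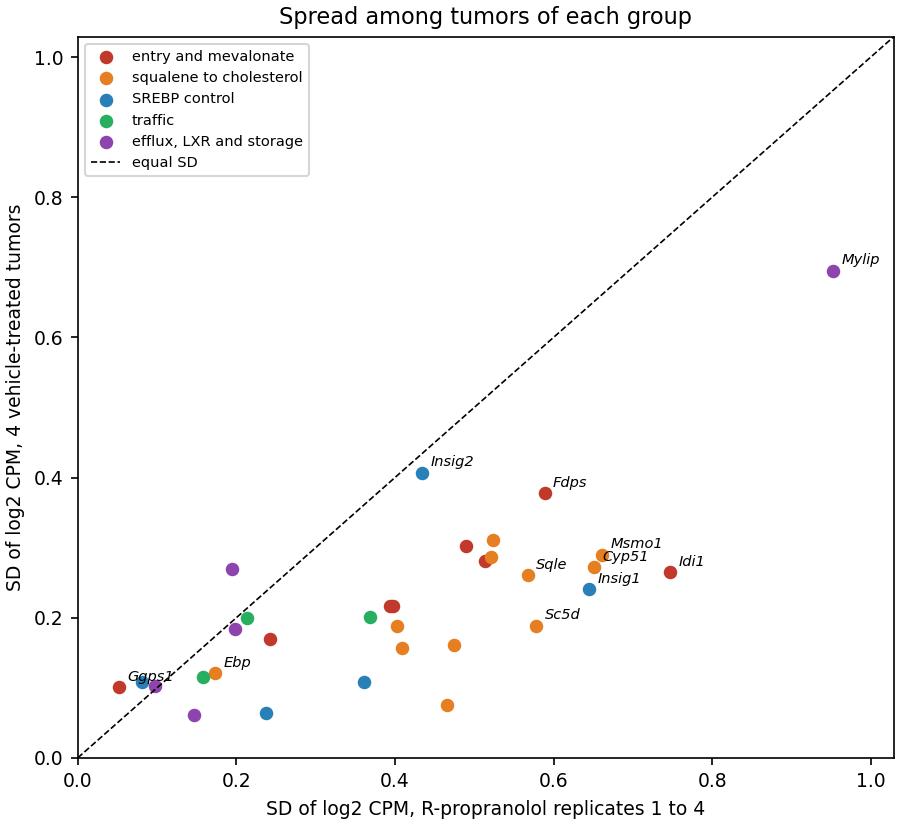
SD of log2 CPM of each of the 32 genes in R-propranolol replicates 1 to 4 (horizontal axis) and in the 4 vehicle-treated tumors (vertical axis), colored by role, with a dashed line where both are equal. Of the 32 genes 28 lie below the line, with Mylip furthest to the right, followed by Idi1, Msmo1 and Cyp51, and Ggps1 above the line near 0.

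R-propranolol replicate 5 differed within the pathway as well. It was below the vehicle mean for 24 of 32 genes and above for 8, while 48.9% of all genes tested were above it. This tumor was the lowest of all tumors for 11 of 19 enzymes and 42.1% of all genes. It was the highest for 2 of 19 enzymes and 36.5% of all genes. Sqle was at 0.148 of the vehicle mean, Cyp51 at 0.210, Hsd17b7 at 0.219, Srebf2 at 0.281, Stard4 at 0.325 and Msmo1 at 0.329. Of the 19 enzymes 8 were under 0.5 of that mean, and the share of all genes under 0.5 was not computed. Other enzymes of the same tumor were near the vehicle mean, with Fdft1 at 1.04, Tm7sf2 at 1.01, Ebp at 1.10 and Hmgcs1 at 0.874, and Pmvk at 1.40 was above it. Its muscle, adipocyte and proliferation genes, given above, moved with these values, and their part in the result was not tested. In tissue RNA of this kind, fewer cells of a type and less RNA per cell cannot be told apart.

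Cell type genes were set beside the enzyme sums of the other tumors too. Fibroblast genes summed to 6567, 32007, 6001, 5237 and 16363 CPM in R-propranolol replicates 1 to 5, against 5985, 7524, 8561 and 5871 CPM in vehicle replicates 1 to 4. R-propranolol replicate 2, low in the enzymes, was high in these genes, while R-propranolol replicate 4, also low in the enzymes, had the lowest fibroblast sum of all 9 tumors. Most of the sum in replicate 2 came from the collagen genes Col3a1, Col1a1 and Col1a2, with 363870, 244273 and 144919 counts. Pdgfra of the same list had 7165 counts there, against 7507 in R-propranolol replicate 1. The part of fibroblasts in the enzyme values was not tested. Macrophage genes summed to 1439, 3575, 806, 1663 and 4078 CPM in R-propranolol replicates 1 to 5, against 2198, 1716, 2018 and 855 CPM in vehicle replicates 1 to 4. Among R-propranolol-treated tumors, the order of the macrophage sums was the reverse of the order of the enzyme sums. Vehicle replicate 4 had the highest enzyme and lowest macrophage sum of its group and vehicle replicate 1 the opposite, while vehicle replicates 2 and 3 broke that order. Mertk of the same list did not follow the sum, with 972 counts in R-propranolol replicate 3 and 215 in replicate 5. The part of macrophages in the result was not tested. Proliferation genes summed to 1339.5, 1008, 1114, 1438 and 265 CPM in R-propranolol replicates 1 to 5, against 1256, 1145, 1349 and 1341 CPM in vehicle replicates 1 to 4. Liver-type genes, whose cells also make much cholesterol, summed to 22.1 to 291 CPM in R-propranolol-treated tumors and 2.61 to 38.2 CPM in vehicle-treated tumors, where the 291 CPM of R-propranolol replicate 5 came mainly from Cyp2e1, with 3653 counts against 312 for Alb. Sebocyte genes summed to 157 to 244 CPM in R-propranolol replicates 1 to 4, 639 CPM in replicate 5 and 193 to 269 CPM in vehicle-treated tumors. Most of the 639 CPM came from Dgat2, which fat also expresses, with 6885 counts, and Mgst1 had the highest count of the list in each of the other tumors. Skin keratinocyte genes summed to at most 49.9 CPM in any tumor. Of the 10 skeletal muscle genes, R-propranolol replicates 1 to 5 had 1, 4, 4, 4 and 0 genes at a count of 0, against 0, 5, 0 and 3 in vehicle replicates 1 to 4.

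**Figure D5:**
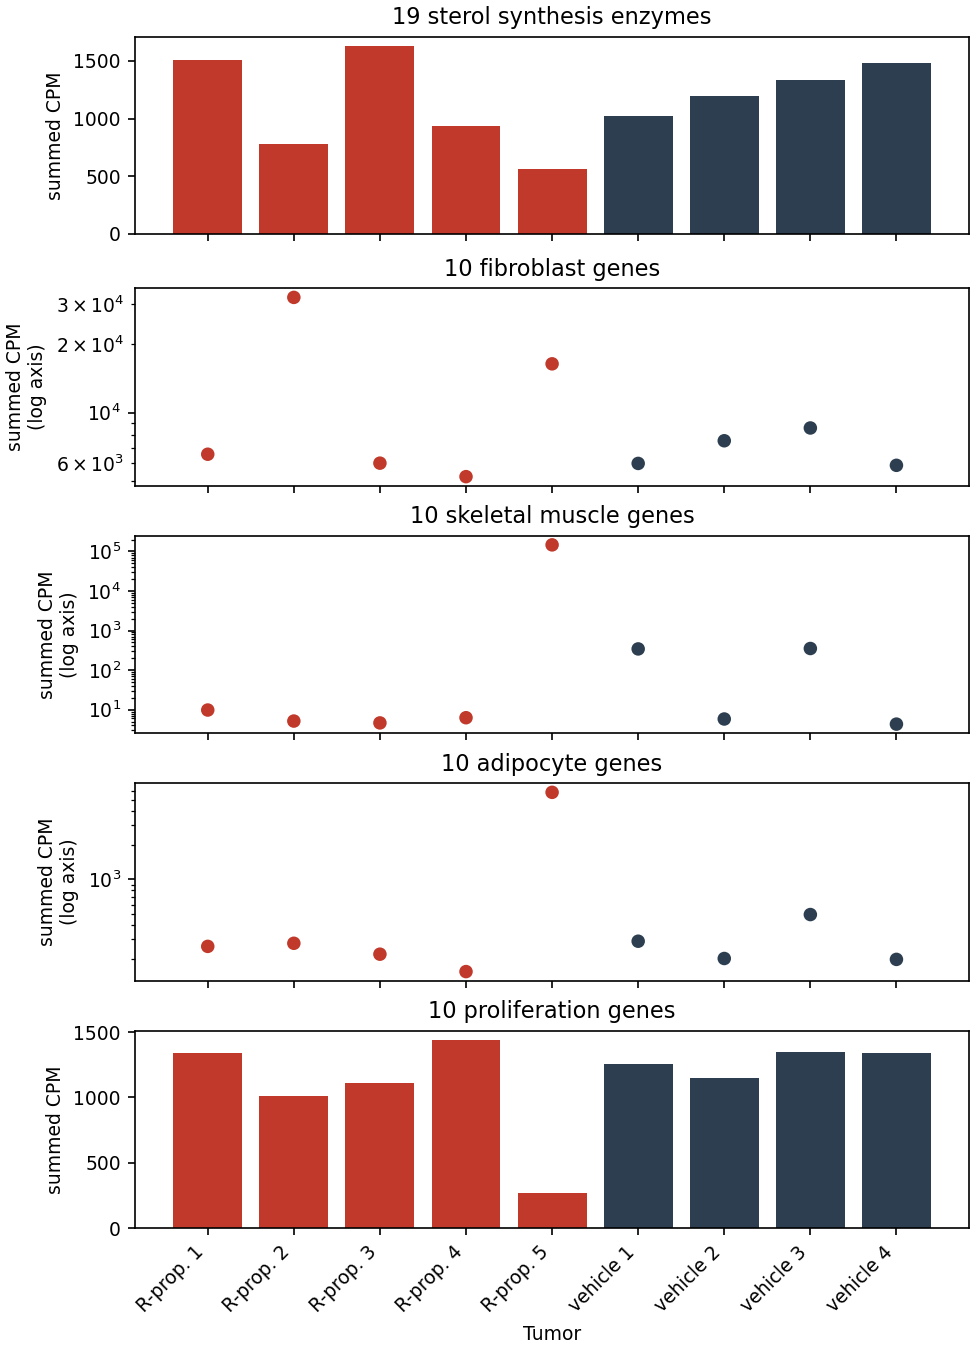
Summed CPM per tumor (R-propranolol replicates 1 to 5 in red, vehicle replicates 1 to 4 in dark) of the 19 enzymes and of 10 genes each for fibroblasts, skeletal muscle, adipocytes (these 3 as points on log axes) and proliferation. The enzyme sum is 782 CPM in R-propranolol replicate 2 and 936 CPM in replicate 4, while the fibroblast sum is 32007 and 5237 CPM in the same tumors.

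Leaving out both treated tumors that stood apart in fibroblast or muscle genes, R-propranolol replicates 2 and 5, turned most signs. Then 27 of 32 genes and 15 of 19 enzymes had a log2 fold change above 0, with medians of 0.09 and 0.10. For all genes the share above 0 was 49.0% and the median -0.003. Of the 32 genes 0 had an unadjusted edgeR p under 0.05, against 639 of the 13812 genes tested in that fit. R-propranolol replicates 2 and 5 also had the lowest enzyme sums of all tumors, 782 and 565 CPM, so leaving them out raises the treated values. Their macrophage sums, 3575 and 4078 CPM, were the highest of all tumors. The part of fibroblast, muscle or macrophage RNA in the turn of signs was not tested. Leaving out R-propranolol replicate 1 or 3, where the enzymes were high, left 6 and 5 of 32 genes above 0, and 1 of 19 enzymes in each case. Of all genes, 53.3% and 54.9% were above 0 in these fits. The direction of the group difference in these genes thus depended on which treated tumors were included.

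Levels of different genes were compared per length, as TPM over merged exons of the basic GENCODE set. TPM was not scaled by TMM, so it serves to rank genes and not to compare the groups. Nr1h2, for one, had 91.8 CPM in R-propranolol-treated and 85.8 CPM in vehicle-treated tumors, but 122 and 127 TPM. Npc2 had the highest level of the 32, with 400.3 TPM in R-propranolol-treated and 465 TPM in vehicle-treated tumors, followed by Sqle with 239.5 TPM in R-propranolol-treated and 303 TPM in vehicle-treated tumors. Srebf2 had 182 TPM in R-propranolol-treated and 229.8 TPM in vehicle-treated tumors, and Fdps had 155 TPM in R-propranolol-treated and 199 TPM in vehicle-treated tumors. Sqle and Fdps were the most abundant enzymes, and Tm7sf2 had the lowest level of all 32, with 10.1 TPM in R-propranolol-treated and 12 TPM in vehicle-treated tumors. These ranks rest on the basic set of exons. Fdps has 1453 bases in it, against 4208 over all GENCODE exons, and Sqle has 2758, against 5546.

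Other genes of the pathway, 47 tested of a list of 51, gave 29 log2 fold changes above 0 and 18 below, with a median of 0.05, and none passed the test. Fatty acid synthesis genes, 18 tested of 20, gave 12 values above 0 with a median of 0.52, and 4 above 0 with a median of -0.06 without R-propranolol replicate 5. Scd1, the desaturase of fatty acids and a target of the Srebf1 product, had a log2 fold change of 2.38 with all tumors and -0.44 without that tumor. It was highest in R-propranolol replicate 5, vehicle replicate 3 and vehicle replicate 1, at 5318, 386 and 284 CPM. These tumors also had the highest adipocyte sums, 5791, 491 and 287 CPM, and the part of host fat in the Scd1 values was not tested.

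Several values carry a limit of the counting. Exon bases of 11 of the 32 genes are shared with another gene in GENCODE, and since the sources used here do not give the strand setting of the counting, reads there may have been set aside or counted for either gene. Fdps shares 1124 exon bases with Gm43738 and Tm7sf2 shares 532 with Vps51, both on the same strand. On the other strand Fdft1 shares 774 bases with Ctsb, Hmgcs1 shares 557 with Gm48342, Scap shares 985 with 5830462I19Rik and Npc1 shares 511 with Rmc1.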

How the data were processed

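The deposited values are raw whole-number counts per gene symbol for 24421 genes, which the authors made from pairs of 150-base reads. The submitters' processing notes name STAR, HTSeq and mm10, while the sources used here do not give their versions, the gene annotation or the use of strand. Also deposited are totals of reads that fell in no gene (13.4% to 15.4% per library), in more than 1 gene (1.81% to 1.98%) or in several genome positions (3.46% to 3.99%, but 7.86% for R-propranolol replicate 5), and none of these entered library sizes.

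Genes were kept by filterByExpr (minimum count 10, minimum total 15), scaled by TMM and tested across all genes with edgeR 4.0.16 (quasi-likelihood, all 9 tumors, no covariate) in R 4.3.3, and p was adjusted by Benjamini and Hochberg over the 13901 genes tested. The SE of an edgeR log2 fold change was taken as its size divided by the square root of the test's F value. The 95% interval was built from that SE with a t distribution, so both are approximate. Log2 CPM used a prior count of 0.25. Exact two-sided permutation tests used the 126 splits of 9 tumors. TPM used merged exons of the basic set of GENCODE M21 for 23334 symbols with 1 place (95.5%). The genes and lists were chosen with earlier results of these data known. Values in every tumor are given for the 3 enzymes highest in TPM, the 2 genes of each role with the smallest p, Srebf1, Srebf2, Insig1 and Insig2, and for Hmgcs1, Idi1, Ebp and Soat1, which were chosen after their values were seen. From the lists of other genes, up to 3 with the smallest p may be named.

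As alternatives, libraries were scaled by DESeq2 1.42.0 size factors or by total counts only, DESeq2 or limma-voom (limma 3.58.1, tumor quality weights) replaced the test, low counts were left unfiltered or filtered at 1 CPM in 4 tumors, each tumor was left out in turn, and a replicate block was added. Another summed vehicle replicates 1 and 2, whose titles carry the same number before the group name and which were otherwise taken as separate tumors. Leaving out R-propranolol replicates 2 and 5 together was added after seeing the data. The labels name no culture or litter, so p-values measure the spread between these tumors.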

Additional observations from a re-analysis of the deposited data

Results flagged for a closer look

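Among 64 sets of values (32 genes in each group), 5 held a tumor far from the others of its group by Dixon's test, which chance gives in about 1 of 20 sets. R-propranolol replicate 5 gave 4 of the 5. Ggps1, of the geranylgeranyl branch, was at 14.6 CPM in that tumor, with a gap to the next treated tumor of 0.828 of the group's range. Srebf1 was at 346 CPM in it (0.904 of the range). The lysosomal exporter Npc1 was at 73.4 CPM in it (0.740 of the range), and the esterifying enzyme Soat1 at 68.4 CPM (0.860 of the range). Ebp, the sterol isomerase, was at 20.4 CPM in vehicle replicate 1, with a gap of 0.949 of the range of the vehicle-treated tumors.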

How the results depend on the processing

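No cholesterol gene passed the adjusted threshold in any of 18 alternatives, and the smallest adjusted p among them was 0.660. Of the 32 genes 5 kept the sign of their log2 fold change throughout and 27 did not. The cause of the changes below was not tested. Library size alone moved the median of all genes to -0.10, against 0.03 with TMM, so values under it are relative to that shift.

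Over all genes, DESeq2 called 2, Dusp1 and Egr1, named after their values were seen, and gave 656 unadjusted p under 0.05. The same count was 838 with limma-voom, 626 with no filter, 639 without R-propranolol replicates 2 and 5, 100 with vehicle replicates 1 and 2 summed, and 103 to 737 with 1 tumor left out.

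Genes of the 32 above 0 numbered 3 with library size alone, 25 with limma-voom, 27 without R-propranolol replicates 2 and 5, and 5 to 14 with 1 tumor left out. The share of all genes above 0 was 35.8% with library size alone, 48.9% with limma-voom and 49.0% without both tumors. It was 51.0% to 55.3% with 1 tumor left out. Enzymes above 0 numbered 0 with library size alone, 15 with limma-voom, 15 without both tumors, 1 with vehicle replicates summed, and 1 to 7 with 1 tumor left out. Medians of the 32 genes and of the enzymes were 0.087 and 0.12 with limma-voom, 0.091 and 0.10 without both tumors, and -0.22 to -0.01 and -0.35 to -0.05 with 1 tumor left out. With 1 tumor left out, 0 to 1 of the 32 genes had an unadjusted p under 0.05.

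With limma-voom the log2 fold change turned for Acat2 (0.20), Mvk (0.17), Idi1 (0.29), Fdps (0.11), Fdft1 (0.081), Sqle (0.14), Lss (0.17), Cyp51 (0.094), Tm7sf2 (0.063), Msmo1 (0.14), Nsdhl (0.047), Sc5d (0.18), Srebf2 (0.058), Scap (0.048), Stard4 (0.20), Npc1 (0.068), Npc2 (0.021), Mylip (-0.22) and Soat1 (0.10). Without R-propranolol replicates 2 and 5 it turned for Acat2 (0.11), Mvk (0.090), Idi1 (0.24), Fdps (0.067), Fdft1 (0.11), Sqle (0.16), Lss (0.15), Cyp51 (0.10), Tm7sf2 (0.015), Msmo1 (0.18), Nsdhl (0.019), Sc5d (0.19), Srebf2 (0.084), Scap (0.093), Stard4 (0.21), Npc1 (0.14), Npc2 (0.049), Abca1 (0.058), Abcg1 (0.050), Mylip (-0.40) and Soat1 (0.13). With library size alone it turned for Hmgcs1 (-0.11), Pmvk (-0.038), Mvd (-0.083), Insig2 (-0.027) and Nr1h2 (-0.041), with no filter for Hmgcs1 (-0.0060), and with vehicle replicates summed for Hmgcs1 (-0.068) and Mvd (-0.035). Fdft1 was 0.0097 with the size factors of DESeq2, 0.0097 with DESeq2 and 0.0088 with the filter of 1 CPM. With 1 tumor left out, signs turned for Ebp (-0.064 to 0.062), Fdft1 (-0.11 to 0.10), Hmgcs1 (-0.12 to 0.12), Idi1 (-0.40 to 0.025), Insig2 (-0.084 to 0.24), Mvd (-0.13 to 0.15), Mvk (-0.20 to 0.020), Npc1 (-0.19 to 0.089), Npc2 (-0.22 to 0.014), Sc5d (-0.22 to 0.056), Soat1 (-0.12 to 0.17), Stard4 (-0.29 to 0.085) and Tm7sf2 (-0.19 to 0.014).

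Same-numbered tumors of the groups deviated with correlations of -0.283, 0.0879, -0.636 and 0.534. R-propranolol replicate 3, for one, gave -0.56 with vehicle replicate 1 and 0.713 with vehicle replicate 4, which carry other numbers. Each deviation depends on the other tumors of its group, R-propranolol replicate 5 among them, so these correlations cannot decide whether tumors were paired. A replicate block, in which R-propranolol replicate 5 carries no information, gave 283 unadjusted p under 0.05 over all genes. It put 13 of the 32 genes above 0, against 51.7% of all genes, and gave 1 an unadjusted p under 0.05 (Soat1). Signs turned with it for Soat1 (log2 fold change 0.17), Stard4 (0.061), Npc1 (0.087), Npc2 (0.013) and Abcg1 (0.0045).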
